A study of Mus musculus with 8 samples.

Results

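Defa21, Defa22, Defa29, Defa34, Defa35, Defa41 and Defa42 are 7 of the 28 protein-coding alpha-defensin (Defa) genes of the mouse, and they were picked out because each had its lowest level in the same Paneth cell library, zinc replicate 3. That library therefore chose the genes, and what the genes did in it is given here as a description, with no test. All 7 passed the filter on low counts, as did 12 of the other 21 coding Defa genes. The deposited table held 55414 gene identifiers in all.

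The 8 libraries came from Paneth cells of C57BL/6J mice, sorted by FACS from a single-cell suspension of the small intestine. In the water group (n = 4) the mice drank Milli-Q water, and in the zinc group (n = 4) they drank water holding 25 mM ZnSO4, each for 7 days. No other allele or agent is named, all mice were of the same strain, and ages were not given in the sources used here. The study's methods describe sorting from single mice, but the labels number the replicates without naming animals, so the p-values below measure the spread between these libraries. RNA was made into stranded mRNA libraries, which were read to between 20760764 and 24117111 counts.

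Paneth cells sit at the base of the small intestinal crypts and secrete antimicrobial proteins from large granules. Alpha-defensins, called cryptdins in mice, are the best known of these: short, cationic peptides held in shape by disulfide bonds between cysteines, which damage bacterial membranes. They are made as longer precursors, and in mice the protease Mmp7 removes the inactive proregion. The mouse genes arose by repeated duplication and lie side by side, so many are near copies of each other.

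Paneth identity was plain in every library, including zinc replicate 3. The 6 Paneth markers (Lyz1, Itln1, Mmp7, Ang4, Mptx2 and Defa24) were all detected and summed to 399616 CPM (read counts relative to library size, after scaling by TMM, a trimmed mean of ratios) in zinc replicate 3, within the 306404 to 626216 CPM of the other 7 libraries. The 3 neutrophil markers, and Cd3e of T cells, were at 0 in all libraries. The summed goblet, enterocyte, stem, enteroendocrine, tuft and immune markers of zinc replicate 3 also lay inside the range of the other 7 libraries. In bulk RNA a smaller number of cells that use a gene cannot be told apart from less of its RNA in each cell.

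By sequence the 7 genes fell into 3 types. Joining coding sequences at 95% identity or more put Defa21 with Defa22, put Defa34 with Defa35 and Defa41, and put Defa29 with Defa42. Their last 120 coding bases, with the stop codon at the 3′ end, are shown because they carry the cysteine pattern that separates the types. In-frame TGC and TGT codons, which encode cysteine, are in capitals, and the sequences are those of the first transcript of each gene in GENCODE M39 (GRCm39). Defa21 and Defa22 differed at 2 of the 282 coding bases.
Defa21: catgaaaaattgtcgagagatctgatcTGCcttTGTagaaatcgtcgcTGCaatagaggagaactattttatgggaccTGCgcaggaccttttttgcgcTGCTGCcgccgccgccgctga
Defa22: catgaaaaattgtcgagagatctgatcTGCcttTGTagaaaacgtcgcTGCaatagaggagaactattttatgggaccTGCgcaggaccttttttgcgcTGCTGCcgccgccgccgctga
Defa34, Defa35 and Defa41 also had coding lengths of 282 bases and were 97.5% to 98.2% identical to each other, but 83.0% (Defa21 and Defa34) and 83.7% (Defa22 and Defa34) identical to the first pair. Defa41 had 7 cysteine codons in this stretch, where Defa34 and Defa35 had 6.
Defa34: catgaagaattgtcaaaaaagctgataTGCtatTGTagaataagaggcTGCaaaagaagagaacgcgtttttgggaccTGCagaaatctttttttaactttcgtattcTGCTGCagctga
Defa35: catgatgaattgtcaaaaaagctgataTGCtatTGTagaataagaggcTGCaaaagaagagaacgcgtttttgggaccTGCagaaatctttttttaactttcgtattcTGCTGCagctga
Defa41: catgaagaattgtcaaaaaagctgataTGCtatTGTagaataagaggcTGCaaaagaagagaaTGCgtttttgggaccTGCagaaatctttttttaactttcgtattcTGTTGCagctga
Defa29 and Defa42 were of another build, with 351 coding bases and cysteine codons grouped at the start of the stretch, a layout known from the cryptdin-related sequences. They were 96.6% identical to each other and 58.4% and 58.7% identical to Defa34.
Defa29: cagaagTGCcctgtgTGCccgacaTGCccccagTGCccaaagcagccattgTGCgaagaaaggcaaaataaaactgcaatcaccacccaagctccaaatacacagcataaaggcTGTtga
Defa42: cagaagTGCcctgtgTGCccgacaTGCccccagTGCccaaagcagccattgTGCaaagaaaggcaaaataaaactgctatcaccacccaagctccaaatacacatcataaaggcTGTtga

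The types did not coincide with the set of 7 throughout. No tested gene outside the set joined the Defa21 type or the Defa34 type, although Defa5, Defa36 and Defa37, whose counts were too low to test, joined the latter. Defa36 had 0 counts in every library here, while the paper lists it above Defa34 in a typical experiment quantified with Salmon. Whether these untested genes followed the set could not be seen in this table. The Defa29 type, in contrast, also held Defa38, Defa39 and Defa43, none of which was lowest in zinc replicate 3. Defa29 was closer to Defa38 (97.4%) than to Defa42 (96.6%), and the coding sequences of Defa42 and Defa43 were the same at all 351 positions. Defa38 and Defa24, the most abundant Defa gene here and outside all 3 types, are shown for comparison.
Defa38: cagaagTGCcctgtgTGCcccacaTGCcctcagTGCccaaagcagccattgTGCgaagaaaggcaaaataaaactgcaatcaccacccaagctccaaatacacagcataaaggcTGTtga
Defa24: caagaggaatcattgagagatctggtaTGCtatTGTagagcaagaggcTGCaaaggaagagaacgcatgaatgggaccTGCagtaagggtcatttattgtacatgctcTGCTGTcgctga

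**Figure D1:**
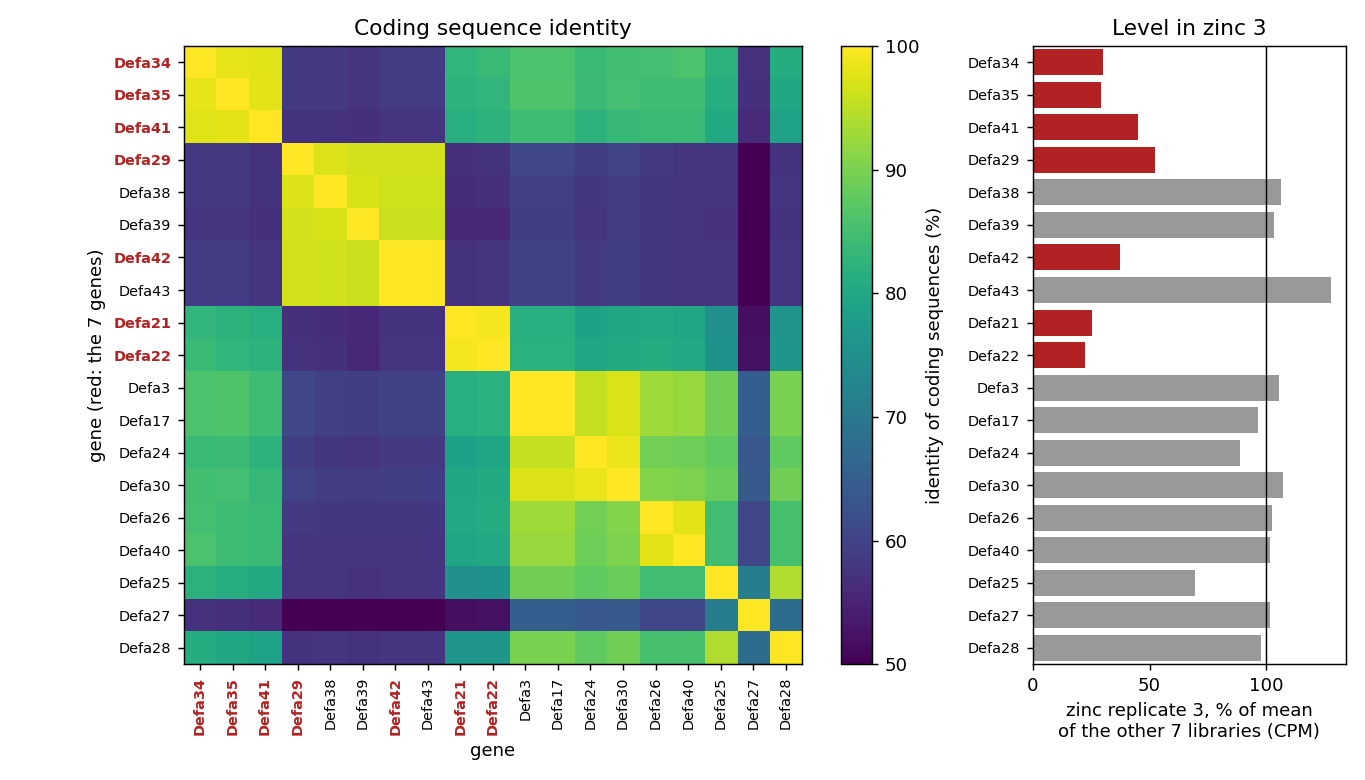
Left, percent identity of coding sequences between the 19 tested Defa genes, grouped by sequence type, with the 7 genes in red. Right, the CPM of zinc replicate 3 as a percentage of the mean of the other 7 libraries, with red bars for the 7 genes. The red bars run from 22.3% to 52.4%, and Defa38, Defa39 and Defa43 stand at 106.2%, 103.2% and 127.6% although they share a sequence type with Defa29 and Defa42.

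The genes lie in the alpha-defensin cluster on chromosome 8 (gene positions below are on GRCm39). From the start of Defa21 to the end of Defa34 the set spanned 641.2 kb, and 19 other coding Defa genes lay between its members. Defa21, Defa35, Defa22, Defa41 and Defa34 were on the plus strand, and Defa29 and Defa42 were 2 of the 5 coding Defa genes on the minus strand. Each gene had 2 coding exons. Members and other genes alternated along the cluster: Defa25, Defa38 and Defa30 came between Defa35 and Defa22, and Defa34 stood near the far end, between Defa17 and Defa39.

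**Figure D2:**
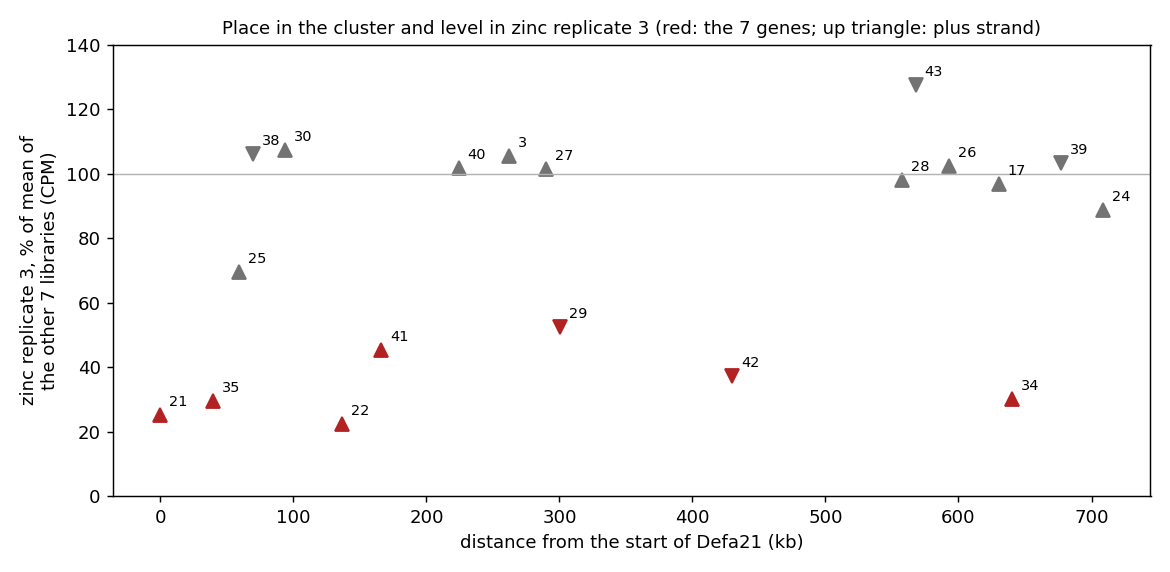
Each triangle is a tested Defa gene, placed by the distance of its start from that of Defa21 in kb and by the CPM of zinc replicate 3 as a percentage of the mean of the other 7 libraries. The 7 genes, in red, lie between and beside genes near 100%, from the left end of the cluster to Defa34 at 640.2 kb.

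Upstream sequence was at hand for 5 of the 7 genes (Defa21, Defa22, Defa35, Defa41 and Defa42) and for 11 of the other coding Defa genes, from RefSeq on the older build GRCm38.p6. All 5 had a TATAAA within 250 bases before the start, as did 10 of the 11 others, against 12.4% of all 32851 promoters. CTTTGA, the core letters of sites for TCF/LEF factors, which carry Wnt signals in the crypt, was found on either strand in 4 of the 5 and in 9 of the 11 others, against 13.8% of all promoters. The letters of metal response elements (TGCACNC or TGCGCNC) and the Cdx letters TTTATG were in none of the 16 windows, against 21.4% and 10.8% of all promoters. In the stretches shown, TATAAA and CTTTGA (read as TCAAAG on the strand shown) are in capitals, and the pair cannot overlap. A match is a description of letters only. The stretches run from 90 bases before the TATAAA nearest the start to 14 bases after it and are shown to compare the members with each other and with Defa30.
Defa21 (chr8:21025424-21025533, plus strand): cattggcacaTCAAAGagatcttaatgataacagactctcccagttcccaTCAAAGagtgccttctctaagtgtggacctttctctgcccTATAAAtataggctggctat
Defa35 (chr8:21064902-21065011, plus strand): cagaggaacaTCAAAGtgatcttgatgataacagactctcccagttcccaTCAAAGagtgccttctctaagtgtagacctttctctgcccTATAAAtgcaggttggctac
Defa41 (chr8:21201440-21201549, plus strand): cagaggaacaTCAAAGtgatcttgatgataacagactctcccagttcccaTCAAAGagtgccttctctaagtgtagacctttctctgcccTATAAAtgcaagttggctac
Defa42 (chr8:21456572-21456681, minus strand): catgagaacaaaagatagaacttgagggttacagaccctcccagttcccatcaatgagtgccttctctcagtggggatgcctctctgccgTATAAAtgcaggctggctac
Defa30 (chr8:21134499-21134608, plus strand): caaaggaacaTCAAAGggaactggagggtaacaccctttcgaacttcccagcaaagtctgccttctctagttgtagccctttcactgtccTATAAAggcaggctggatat
Defa22 was the same as Defa21 at all 110 positions (chr8:21162156-21162265), and Defa35 and Defa41 differed at 1. Defa21 and Defa35 differed at 10 positions, and Defa21 and Defa42 at 24. This did not follow the coding types throughout, since Defa21 differed at only 4 positions from Defa2, Defa20 and Defa32, which are of another coding type. Defa43 had the same 110 bases as Defa42. Nothing is read from the different levels of these genes in zinc replicate 3. Their coding sequences are the same, so the split of reads between Defa42 and Defa43 is uncertain. Defa42 also had the same low count in zinc replicate 3 and water replicate 3. Whether the upstream bases bear on the levels in zinc replicate 3 was not tested.

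Near copies also limit how far the count of a single gene can be trusted. How reads that match several genes were counted was not given in the sources used here. Of the 75-base windows of its transcripts, 58.1% for Defa21, 50.7% for Defa22, 74.0% for Defa29, 62.9% for Defa34, 62.0% for Defa35, 71.6% for Defa41 and 18.7% for Defa42 occurred in no other Defa gene. Defa2, Defa20 and Defa32, with such windows at 1.61%, 1.39% and 0.0%, had at most 5 counts in any library. The paper, quantifying with Salmon, lists Defa2 and Defa20 among the most abundant Defa genes of a typical experiment. Defa3, at 6.87%, averaged 241 CPM here, where Defa24 averaged 176141 CPM. In that experiment the paper lists Defa3 directly after Defa24, the most abundant. Counts of near copies may therefore be too low, and their split inside a type is uncertain, most of all for Defa42. The annotation of Defa41 also overlaps that of Defa31 on the same strand.

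As counted here, levels of the 7 genes spanned 4 orders of magnitude, and 3 of them made up nearly all of the counts. In the 7 libraries other than zinc replicate 3, Defa21 took 41.4% of the counts of the set, Defa22 33.8% and Defa29 21.9%. Per kb of exon, mean CPM over the 8 libraries fell from 31838 for Defa21 to 25827 for Defa22, 14859 for Defa29, 1263 for Defa34, 485 for Defa35, 87.9 for Defa41 and 2.72 for Defa42. Defa21, Defa22 and Defa29 overlapped in this measure between libraries, and in zinc replicate 3 Defa29 (8282) lay above Defa22 (6381). Defa34 (416 to 2083) and Defa35 (156 to 873) also overlapped between libraries. Every other step down the order was larger than the spread of the libraries. For scale, Defa24 reached 409630 CPM per kb on the same measure. The order holds for these counts only. In a typical experiment quantified with Salmon, the paper lists Defa42 below Defa34 but above Defa41 and Defa35.

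Defa21 (ENSMUSG00000074447, chr8:21515557-21516533, plus strand) is a classical cryptdin gene and the most abundant of the set. It was at 14823, 13774, 9346 and 13848.5 CPM with water (replicates 1 to 4) and 24909, 16932, 3772 and 11354 CPM with zinc (same order). Zinc replicate 3 was lowest, at 25.2% of the mean of the other 7, and water replicate 3 came next. Defa22 (ENSMUSG00000074443, chr8:21652290-21653265, plus strand), its near copy, was at 12079, 11483, 7629 and 11553 CPM with water (replicates 1 to 4) and 19492, 13328, 2718 and 9737 CPM with zinc (same order). The order of the libraries was the same as for Defa21, with zinc replicate 3 at 22.3% of the mean of the others, the lowest share of the 7 genes. Defa21 to Defa22 stayed between 1.17 and 1.28 counts per count in the other 7 libraries and was 1.39 in zinc replicate 3.

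Defa34 (ENSMUSG00000063206, chr8:22155768-22156751, plus strand) was at 1029, 810, 561 and 650 CPM with water (replicates 1 to 4) and 1171, 725, 234 and 498 CPM with zinc (same order). Its level in zinc replicate 3 was 30.1% of the mean of the others, and here zinc replicate 4, not water replicate 3, came second from the bottom. Defa35 (ENSMUSG00000061845, chr8:21555054-21556012, plus strand) was at 236, 187, 139 and 172 CPM with water (replicates 1 to 4) and 347, 232, 62.2 and 168 CPM with zinc (same order). Zinc replicate 3 stood at 29.4% of the mean of the others and zinc replicate 1 was highest. Defa41 (ENSMUSG00000079116, chr8:21681585-21692570, plus strand) was at 51.9, 46.1, 27.8 and 42.6 CPM with water (replicates 1 to 4) and 65.4, 44.7, 20 and 30.8 CPM with zinc (same order). Its share in zinc replicate 3 was higher, at 45.3% of the mean of the others, so Defa34 to Defa41 was 11.7 in zinc replicate 3 against 15.3 to 20.2 elsewhere.

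Defa29 (ENSMUSG00000074437, chr8:21815903-21817036, minus strand), the abundant gene of the cryptdin-related type, was at 9582, 8081, 4832 and 5447 CPM with water (replicates 1 to 4) and 12435, 9372, 4207 and 6429 CPM with zinc (same order). Zinc replicate 3 was lowest but close to water replicate 3, and 52.4% of the mean of the others was the highest such share of the 7. In counts, Defa29 to Defa21 was 1.12 in zinc replicate 3 and 0.393 to 0.646 in the other libraries. Defa42 (ENSMUSG00000079114, chr8:21945441-21946585, minus strand) was near the floor of detection in these counts, at 2, 2.41, 0.719 and 1.49 CPM with water (replicates 1 to 4) and 1.96, 2.22, 0.672 and 1.78 CPM with zinc (same order). These are 17 counts in each of the libraries numbered 3 and 32 to 56 in the rest, and the exact Poisson 95% interval of 17 counts is 9.9 to 27.2.

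**Figure D3:**
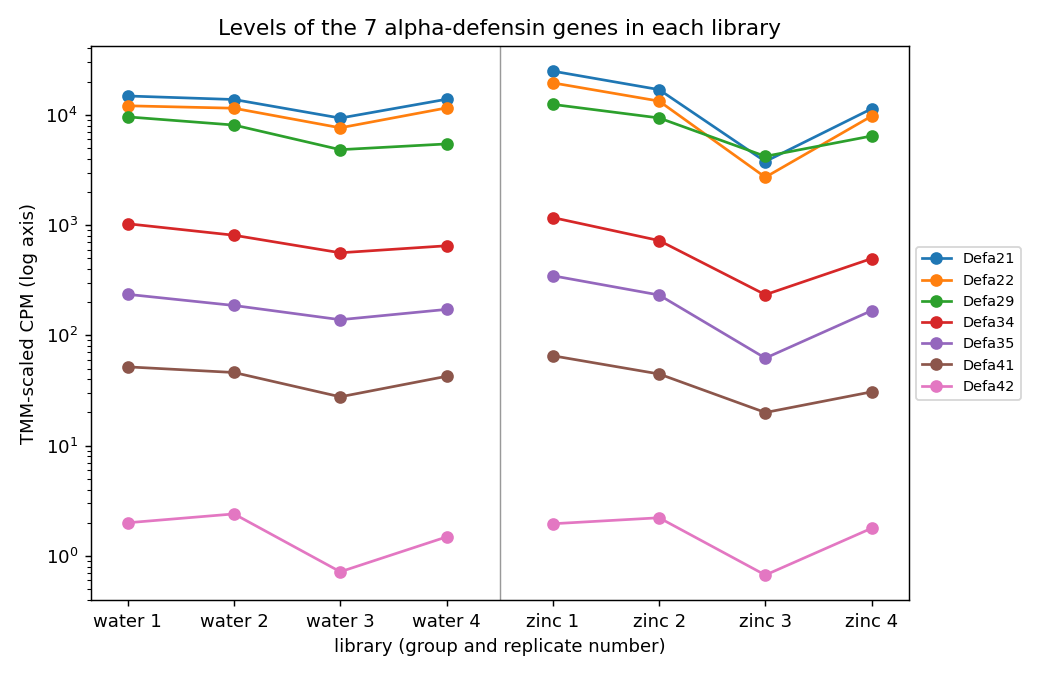
TMM-scaled CPM of the 7 genes in each of the 8 libraries, on a log axis, with water replicates on the left and zinc replicates on the right. Each line is lowest of its group at replicate 3 on both sides, and each is lower in zinc replicate 3 than in water replicate 3.

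Just inside the limit of the set stood Defa29 at 52.4%, and just outside it Defa25 at 69.6%, Defa24 at 88.8% and Defa17 at 96.7% of the mean of the other 7 libraries. Defa25 averaged 1.09 CPM and its lowest library was water replicate 2. The other 9 tested genes ran from 98.0% (Defa28) to 127.6% (Defa43). Over all 11988 genes tested, 9.46% were lowest in zinc replicate 3 and 2.94% were under 0.5 times the mean of the other libraries there, as were 6 of the 7 genes. As the rule used these values, nothing is read from that count.

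The set was then taken as a whole. With water they took 2.89%, 3.50%, 2.40% and 3.84% of all counts (replicates 1 to 4), and with zinc 4.52%, 4.05%, 1.16% and 3.45% (same order). Counting error was small beside this: the Wilson 95% interval of the share in zinc replicate 3 was 1.15% to 1.16%, and such intervals cover counting error only. The other 21 coding Defa genes took between 24.4% and 37.0%, and 32.0% in zinc replicate 3. The log2 ratio of the 7 genes to those 21 was -4.79 in zinc replicate 3 and between -3.68 and -2.72 elsewhere, a difference of -1.67 from the mean of the others.

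Pairs of single genes gave ratios of the same order. Defa21 to Defa24 was 0.0238 in zinc replicate 3 and between 0.0555 and 0.114 in the other libraries. Defa29 to Defa39, both of the cryptdin-related type, was 0.0936 against 0.124 to 0.25. Defa24 to Defa30, a pair outside the set, was 2.62 against 2.98 to 3.31, so ratios outside the set also shifted in zinc replicate 3, though less.

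The rule did not use the order of the water libraries, though the set was put forward with their values known. All 7 had their lowest water level in water replicate 3, which was so for 23.9% of all genes tested and for 0 of the 12 other tested Defa genes. On shares of library totals the counts were 7 of 7 and 1 of 12, with 9.92% of all genes. Near copies within a sequence type may share reads, so these are not 7 independent agreements. Water replicate 3 stood at 0.59 to 0.70 times the mean of the other water libraries for 6 of the genes and at 0.37 times for Defa42. Of the abundant genes outside the set, Defa24, Defa30, Defa38 and Defa39 were at 0.88, 0.94, 0.80 and 0.83 times and had their lowest water level in water replicate 4.

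This order depended on the scale. Divided by the counts of the other coding Defa genes, 5 of the 7 were lowest of the water libraries in water replicate 3, and Defa21 and Defa22 were lowest in water replicate 1. On this scale 5 of the 12 other tested Defa genes were also lowest in water replicate 3, as were 5.11% of all genes. Summed over the set, the log2 ratio was -3.68 in both of these libraries, against -3.12 and -2.72 in water replicates 2 and 4. Zinc replicate 3 was lowest for all 7 genes on each scale. On shares of library totals 4.02% of all genes were lowest there, and nothing is read from that count either.

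**Figure D4:**
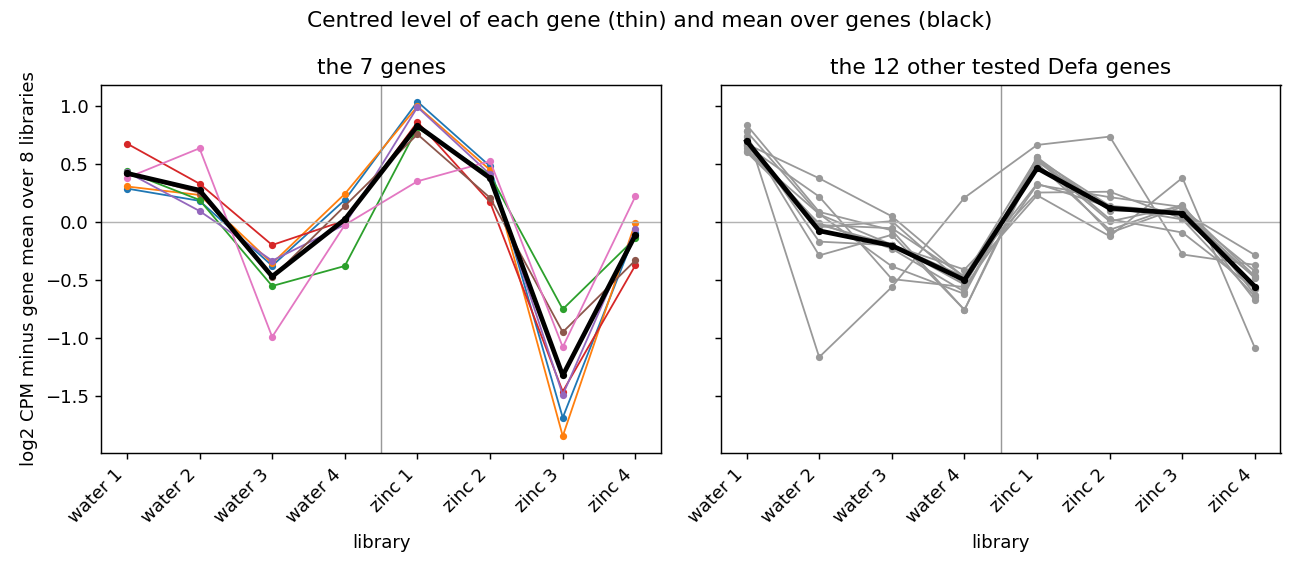
Log2 CPM of each gene minus its own mean over the 8 libraries, for the 7 genes on the left and the 12 other tested Defa genes on the right, with the mean over genes in black. The mean of the 7 genes is at -1.33 in zinc replicate 3 and -0.47 in water replicate 3, where the mean of the other 12 is at 0.07 and -0.21.

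At the upper end, zinc replicate 1 was the highest library for 6 of the 7 genes, and water replicate 2 for Defa42. Each of the 12 others was highest in water replicate 1. On shares of library totals zinc replicate 1 was highest for 5 of the 7, Defa41 was then highest in water replicate 4, and of the others Defa25 and Defa43 were no longer highest in water replicate 1. Outside zinc replicate 3 the CPM of the 7 genes were no more variable than those of the rest of the family. Coefficients of variation were 28.7% to 33.4% over those 7 libraries, against 32.2% to 49.2% for the 12 others. This too depended on the scale. As log2 ratio to the other coding Defa genes, Defa21 ran from -5.03 to -3.92 there and Defa22 from -5.325 to -4.18. Defa30 (-2.255 to -2.10) and Defa38 (-3.26 to -3.07), which are part of that denominator, ran narrower. Defa39 ran from -2.93 to -2.485 and the low Defa25 from -19.6 to -17.4.

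Whether zinc moved the 7 genes was tested without zinc replicate 3, on 4 water and 3 zinc libraries. No member passed the edgeR quasi-likelihood test at an adjusted p of 0.05, where 11 of 12180 genes (0.0903%) passed, 4 higher and 7 lower with zinc. None had an unadjusted p below 0.05 in edgeR (4.61% of all genes did), and the smallest was 0.0911. With the replicate number as a block, 2 had one (5.39% of all genes) and 0 passed at an adjusted p of 0.05 (0.205% of all genes). DESeq2 and limma-voom called 0 of the 7 as well, against 0.312% and 0.0739% of all genes, with 3 and 0 of the 7 at an unadjusted p below 0.05 (4.82% of all genes in each). All 7 fold changes lay above 0, from 0.06 to 0.45 on the log2 scale, beside 49.9% of all genes and a median of 0.00 over all genes. Leaving out zinc replicate 3 removes the lowest zinc value of each of the 7 by the way they were chosen, which raises each fold change, so nothing is read from their shared sign. With water replicate 3 left out as well, Defa34, Defa41 and Defa42 were at -0.06, -0.01 and 0.01.

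On the log2 scale the change of Defa21 was 0.45 (adjusted p = 0.998 in edgeR, SE 0.30), with an approximate 95% interval of -0.13 to 1.03 (normal). Defa22 had 0.40 (adjusted p = 0.998 in edgeR, SE 0.28), Defa35 0.44 (adjusted p = 0.998 in edgeR, SE 0.24) and Defa29 0.42 (adjusted p = 0.998 in edgeR, SE 0.29). For these 4 genes the intervals included 0 and reached changes near or up to a doubling. Defa42 had 0.26 (adjusted p = 0.998 in edgeR, SE 0.42), Defa41 0.15 (adjusted p = 0.998 in edgeR, SE 0.27) and Defa34 0.06 (adjusted p = 0.998 in edgeR, SE 0.28). Water and zinc libraries overlapped for every gene, since zinc replicate 4 lay at or below a water library for each. Leaving out zinc replicate 1, the highest library, lowered Defa21 to 0.12, Defa22 to 0.10, Defa35 to 0.12 and Defa29 to 0.17 and turned Defa34 to -0.33 and Defa41 to -0.17. The replicate block lowered Defa21 to 0.25, Defa22 to 0.21, Defa35 to 0.27, Defa29 to 0.27 and Defa42 to 0.03. With all 8 libraries, as a description, the 7 fold changes ran from -0.22 to 0.22, and 10 of 11988 genes (0.0834%) were called, none of them in the set.

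**Figure D5:**
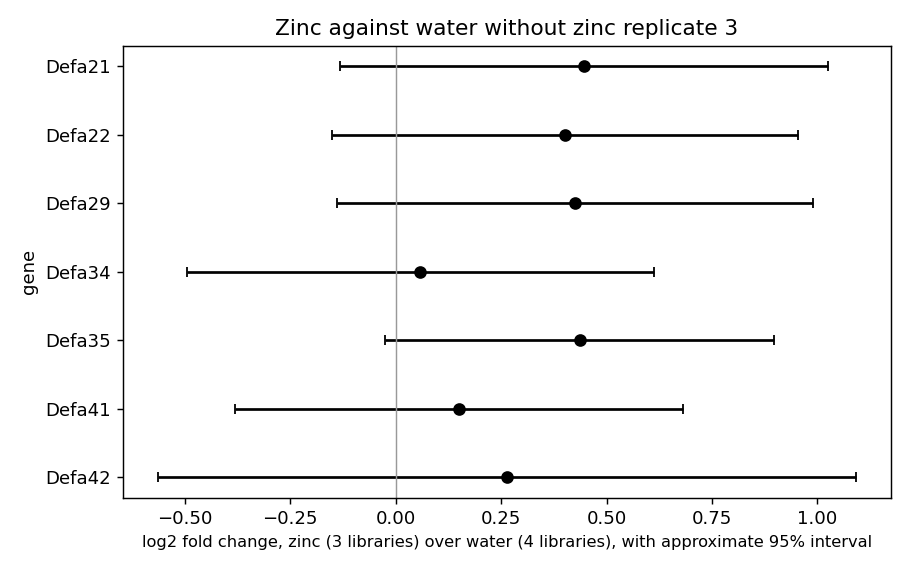
Log2 fold change of zinc over water for each of the 7 genes without zinc replicate 3 (points) with approximate 95% intervals (bars), from edgeR. All points lie above 0 and all bars cross it.

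As a set the 7 genes took 3.16% ± 0.641 of counts with water (SD, n = 4) and 4.01% ± 0.536 with zinc (SD, n = 3), a difference of 0.854 percentage points (exact two-sided permutation p = 0.143, adjusted p = 0.229 over 2 tests). The log2 ratio to the other coding Defa genes was -3.30 ± 0.467 with water (n = 4) and -2.87 ± 0.0459 with zinc (n = 3), a difference of 0.43 (exact permutation p = 0.229, adjusted p = 0.229). The smallest p that 4 against 3 libraries allow is 0.0286. Neither difference passed an adjusted p of 0.05. Leaving out zinc replicate 3, which chose the genes, raises both differences and narrows the spread of the zinc group, so nothing is read from their direction. With zinc replicate 3 included, as a description, the share differed by 0.14 points and the ratio by -0.05.

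Genes that serve alpha-defensin production were set beside the 7. Of a list of 20 such genes, 0 passed the edgeR test without zinc replicate 3 (1, Cdx2, had an unadjusted p below 0.05), 10 lay above 0 and 10 below, and the median log2 fold change was 0.00. In zinc replicate 3 the 20 genes ran from 56.5% to 185.8% of the mean of the other libraries, and 8 were lowest there, against 9.46% of all genes. Mmp7, which cuts the precursors, was at 8850, 6333, 4896 and 4075 CPM with water (replicates 1 to 4) and 8088, 5742, 6378 and 4739 CPM with zinc (same order). It stood at 104.5% of the mean of the other libraries in zinc replicate 3 and was lowest in water replicate 4. Ctnnb1, the beta-catenin gene of the Wnt pathway, was at 504, 461, 463 and 457 CPM with water (replicates 1 to 4) and 490, 463, 427 and 444 CPM with zinc (same order). It was lowest in zinc replicate 3, at 91.1% of the mean of the others.

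Il22ra1, a receptor chain for the cytokine IL-22, was the lowest of that list in zinc replicate 3, at 56.5%, and is named after its values were seen. It was at 29.6, 24.7, 32.3 and 34.3 CPM with water (replicates 1 to 4) and 26.7, 30.1, 16 and 20 CPM with zinc (same order). Unlike the 7 genes, it was lowest of the water group in water replicate 2. Foxa1 and Atoh1, a pair of transcription factors also named after their values were seen, were lowest in zinc replicate 3 (75.4% and 82.5%) and next in water replicate 3. Others of the list did not share this order. Klf4, Ern1 and Spdef were also lowest in zinc replicate 3 (70.0%, 78.5% and 82.4%). Their lowest water libraries were water replicates 1, 4 and 2, and Klf4 was highest of all libraries in water replicate 3. The part of these genes in the levels of the 7 was not tested. Without zinc replicate 3 the log2 fold changes of Mmp7 and Ctnnb1 were 0.03 (SE 0.28) and -0.02 (SE 0.13).

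Alpha-defensin use is known to differ along the small intestine, so genes of the proximal and distal parts were set beside the 7 genes. Gata4, a transcription factor of the proximal small intestine, was at 46.7, 41.1, 54.1 and 34.8 CPM with water (replicates 1 to 4) and 45.5, 41.7, 56.8 and 24.6 CPM with zinc (same order). Onecut2, another factor more used proximally and named here after its values were seen, was at 11.4, 12.6, 24.8 and 9.43 CPM with water (replicates 1 to 4) and 9.03, 8.26, 17.8 and 7.6 CPM with zinc (same order). Each was highest of its group in replicate 3, the libraries in which each of the 7 genes was lowest of its group. Cybrd1, the duodenal iron reductase, was at 74.3, 70.3, 74.6 and 52.5 CPM with water (replicates 1 to 4) and 79.3, 66.2, 63.4 and 48.8 CPM with zinc (same order). Unlike Gata4, it was not raised in zinc replicate 3.

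The summed proximal list of 7 genes was 142 CPM in zinc replicate 3, within the 83.4 to 161 CPM of the others, with no gene at 0 in all libraries. Of distal genes, Slc51a, a bile acid transporter subunit, had a mean of 0.958 CPM and Fgf15 was at 0 throughout. In the test without zinc replicate 3, 0 of 5 proximal genes passed, and 5 of the 5 lay below 0, where 49.9% of all genes lay above 0. At an unadjusted p below 0.05 in edgeR were 2 of the 5, against 4.61% of all genes. These were Onecut2 at -0.82 (SE 0.29) and Pdx1 at -1.08 (SE 0.42) on the log2 scale. Onecut2 passed with no filter on low counts (adjusted p = 0.0156 in edgeR) and under none of the other settings tried. Zinc replicate 3 was the highest zinc library for Onecut2, Pdx1 and Gata4, so leaving it out lowers their fold changes. With all 8 libraries, as a description, these were -0.45, -0.84 and -0.07, and nothing is read from the shared sign. The part of regional genes in the levels of the 7 was not tested.

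The profile of the set was compared with that of all 6786 genes with a mean of at least 10 CPM, by the root mean square difference of centred log2 CPM to the mean of the 7. Lower values are closer, and the members form part of that mean, so their own places are a description. Defa35 (0.117), Defa41 (0.172), Defa21 (0.176) and Defa34 (0.185) took the first 4 places, and Defa22 (0.222) and Defa29 (0.251) took 6 and 7. Defa42 was too low to be placed. Of the other Defa genes, Defa24 came closest, at place 914.

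Outside the family, the 6 closest genes were Ces1c (0.211), which encodes a carboxylesterase, Tfpi (0.285), an inhibitor of blood clotting, Fut1 (0.292), a fucosyltransferase, Abcc2 (0.294), an organic anion exporter, Slc43a1 (0.310), an amino acid transporter, and Eif4ebp1 (0.332), a repressor of translation. Ces1c was at 58, 57, 45 and 64.4 CPM with water (replicates 1 to 4) and 90.4, 81.7, 26.1 and 48.6 CPM with zinc (same order). As in most of the set, it was lowest in zinc replicate 3, then water replicate 3, and highest in zinc replicate 1. Tfpi was at 58.9, 42.7, 37.1 and 40.1 CPM with water (replicates 1 to 4) and 94.5, 49.6, 26.7 and 47.1 CPM with zinc (same order). It followed the same order at both ends. The other 4 stood at 45.6% to 55.3% of the mean of the other libraries in zinc replicate 3. None of the 6 passed the test of zinc against water without that library, with log2 fold changes from 0.07 to 0.50. Each was lowest in zinc replicate 3, which took part in their choice, so leaving it out raises these changes. With all 8 libraries, as a description, they ran from -0.10 to 0.28.

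This likeness rested on zinc replicate 3. With that library left out, none of the 6 genes remained among the 6 closest, and Ces1c fell to place 47 and Tfpi to 79. Over those 7 libraries Defa41, Defa35, Defa22 and Defa21 took places 1 to 4, Defa29 place 6 and Defa34 place 30. These places too are a description, since each gene and its near copies form part of the mean it is compared with. The other tested Defa genes with 10 CPM or more lay at places 232 (Defa40) to 3828 (Defa39).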

How the data were processed

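Paneth cell RNA of 8 libraries was analysed from one table of counts per gene, deposited by the authors with no normalization. The submitters' processing notes name FastQC 0.12.0, STAR 2.7.0a, DESeq2 and mm39 without a role. The sources used here do not name the counter, its annotation or its treatment of multi-mapped reads. Of 55414 identifiers, 54749 matched GENCODE M39, with at least 99.99% of each library's counts. Zinc was tested against water with edgeR 4.0.16 (TMM, minimum count 10, robust quasi-likelihood F test, Benjamini-Hochberg) over all genes, on 7 libraries, since zinc replicate 3 chose the genes. TMM factors ran from 0.764 to 1.23. A count of 0 allows up to 3 counts, or 0.115 to 0.188 CPM. Shares and ratios were tested with exact permutation tests over libraries. Log2 CPM used a prior count of 2. Coding sequences were aligned with MAFFT 7.526. Alternatives were RLE scaling, DESeq2 1.42.0, limma-voom (limma 3.58.1), other filters, Defa genes out of the scaling, a replicate block and each library left out.

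The 7 genes, the gene lists and the motifs were chosen with earlier results of these data known. Named genes were the 7, the 4 most abundant other Defa genes, the 3 next in zinc replicate 3, the 6 closest by profile and the 2 most abundant of each list. Defa2, Defa3, Defa5, Defa20, Defa28, Defa32, Defa36, Defa37, Defa40, Defa43, Onecut2, Pdx1, Cdx2, Il22ra1, Foxa1, Atoh1, Klf4, Ern1 and Spdef were named after their values were seen. Per-length values divide CPM by merged exon length. Some items of the gene lists are not reported here.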

Additional observations from a re-analysis of the deposited data

Results flagged for a closer look

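Of 46 groups of 4 values, 9 held the values that chose the 7 genes. In 2 of the other 37 a library stood far from the other 3, by the gap to the nearest against the group's range, which chance gives in about 1 in 20 groups. The log2 ratio of the 7 genes to the other coding Defa genes was -4.79 in zinc replicate 3, the library that chose the genes, and -2.91 to -2.82 in the other zinc libraries, a gap that the choice of genes used and that is a description only. Onecut2 was at 17.8 CPM in zinc replicate 3 and at 7.60 to 9.03 CPM in the other zinc libraries. Defa22 was at 7629 CPM in water replicate 3 and at 11483 to 12079 CPM in the other water libraries.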

How the results depend on the processing

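Without zinc replicate 3, 11 genes passed the test. The count was 38 with DESeq2, 58 with no filter on low counts and 25 with a replicate block, and 2 to 15 with single libraries left out (2 without zinc replicate 2, 4 without water replicate 2, 5 without water replicate 3). Over 8 libraries it was 10, with 34, 66 and 32 under those settings and 1 to 15 with single libraries left out (1 without water replicate 2, 3 without zinc replicate 2, 4 without water replicate 3). None of the 7 genes was called under any of the 15 settings without zinc replicate 3 or the 16 with it, where Defa42 was not fitted at a mean count of at least 50. Defa34 (0.06) turned to -0.13 with the replicate block, -0.06 without water replicate 3, -0.01 without water replicate 4 and -0.33 without zinc replicate 1, with 0.31 at the upper end. Defa41 (0.15) turned to -0.065 with the block, -0.01 without water replicate 3 and -0.17 without zinc replicate 1, with 0.38 at the upper end. The ratio to the other Defa genes turned to -0.050 with zinc replicate 3 included. The cause of these changes was not tested. None of the 6 closest genes remained with zinc replicate 3 left out, and all 6 did with library totals. The share (0.854 points) ran from 0.598 to 1.13 and the ratio (0.43) from 0.30 to 0.62 with single libraries left out. The difference of zinc replicate 3 from the others ran from -1.77 to -1.61.

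Replicate numbers were not taken as pairs, since the labels give them no shared animal, batch or day and not every pair correlated: deviations of same-numbered libraries correlated at 0.233, 0.000, 0.127 and 0.263, and 3 of the 4 correlated best with their own number. TMM factors also went by number, at 0.764, 1.02, 1.07 and 1.21 with water (replicates 1 to 4) and 0.775, 0.998, 1.05 and 1.23 with zinc (same order). With the replicate block and without zinc replicate 3, the SE of Defa24 fell from 0.42 to 0.11 and that of Defa21 from 0.30 to 0.17. That of Defa42 stayed at 0.42. These are hints of pairing from the data, not from the design, and the main test did not use them. With the replicate block the share differed by 0.602 points and the ratio by 0.30. Without zinc replicate 3, water replicate 3 has no library to pair with. These 2 values are therefore the same as those without water replicate 3.

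Of the single-gene and list values, 131 kept their direction and side of the threshold, 7 reversed and 1 list count moved (the proximal list, from 0 to 1 with no filter on low counts). Low counts limited Defa42 most.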

Other observations

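Pseudogenes of the cluster were read in the same way. Of 17 annotated alpha-defensin pseudogenes, 8 passed the filter on low counts and 3 of these were lowest in zinc replicate 3, against 9.46% of all genes. Defa-ps16, which lies beside Defa29, was at 4.19, 3.57, 1.95 and 3.17 CPM with water (replicates 1 to 4) and 3.15, 3.24, 1.70 and 2.56 CPM with zinc (same order). Its lowest libraries were those numbered 3, as for most of the 7 coding genes. Defa-ps4 was at 5.45 CPM in zinc replicate 3 and 6.38 to 13.4 CPM elsewhere, and Defa-ps17 had 0 counts there and 3 to 25 elsewhere. The other 5 pseudogenes stood at 79.2% (Defa-ps10) to 111.7% (Defa-ps6) of the mean of the other libraries. These pseudogenes were named after their values were seen, and reads shared with coding genes were not told apart.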
